A study of Homo sapiens with 4 samples.

Results

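The replication-dependent histone genes are the protein-coding genes whose symbols join a cluster name, HIST1 to HIST4, to the histone they make, H1, H2A, H2B, H3 or H4. They were taken from the expression table by that name, and 61 of the 21530 genes with at least 1 fragment in a library qualified, out of 71 coding rows with such a name. Fragments are sequenced cDNA pieces assigned to a gene. Some rows held identical values in every library, so the 61 genes came down to 57 loci, each counted once. By histone these were 5 loci for H1, 13 for H2A, 14 for H2B, 10 for H3 and 12 for H4, and 3 further loci mixed genes of 2 histones. By cluster, 46 loci lay in HIST1 on chromosome 6, 8 in HIST2 and 2 in HIST3 on chromosome 1, and 1, HIST4H4, on chromosome 12.

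The cells were HT-29, which derive from an adenocarcinoma of the colon, and NCM460, which are kept as a model of normal colon epithelium. Each line was given sturgeon chondroitin sulfate (SCS), a sulfated cartilage polysaccharide, at 100 μg/mL for 24 h, or left as an untreated control. There was 1 library per line and condition, 4 in all, so no difference below has a replicate check. Every interval is an exact 95% Clopper-Pearson interval that covers counting error only. In bulk RNA, fewer cells in S phase and less histone RNA per cell cannot be told apart.

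With rows of identical values counted once, recovered totals ran from 1156586 to 1654764 fragments per library. Mitochondrial genes took 35.8% of them in the HT-29 control and 13.8% after SCS, and 62.3% and 46.3% in NCM460. Of 12 colon epithelium markers sought, 10 were found. KRT20, VIL1, LGALS4 and CEACAM5 were listed at 0 in both NCM460 libraries, and CDX2 was listed at 0 in both HT-29 libraries. EPCAM, CDH1, KRT8, KRT18 and KRT19 had fragments in all 4 libraries. In the control and SCS libraries KRT19 had 1285 and 1150 fragments in NCM460, and 720 and 375 in HT-29. EPCAM had 36 and 126 in NCM460, and 492 and 605 in HT-29. Mesenchymal markers summed to between 7.33 and 10.8 counts scaled to library size (CPM) in HT-29 and between 43.5 and 52.6 CPM in NCM460. Of the 2 blood markers found, LYZ and CD79A, both were listed at 0 in NCM460, and LYZ had 603 and 352 fragments in the HT-29 control and SCS libraries.

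Histones H2A, H2B, H3 and H4 form the protein core around which DNA is wound, and H1 binds the linker DNA between cores. Their replication-dependent genes are active mainly in S phase, when new DNA must be packed, and lie in clusters, many H2A and H2B genes back to back. Their mRNAs usually end in a conserved stem-loop in place of a poly(A) tail. The stem-loop binding protein SLBP and the U7 small nuclear RNP direct the cut that makes this end, and the mRNAs are degraded when DNA synthesis stops. Libraries that select poly(A) RNA capture such mRNAs poorly. The labels name a NEBNext Ultra RNA kit without saying whether poly(A) RNA was selected.

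The stem-loop was searched for in the GENCODE 29 transcripts of the members because it is the feature that sets this class of mRNA apart. A 16-base element that starts with GG and ends with CC, with paired arms, was found for 28 of the 61 genes, in 5 forms. The capitals below mark the arms of the stem and the lower case letters the loop.
15 genes of H2A, H2B and H3, among them HIST1H2AC and HIST1H3H: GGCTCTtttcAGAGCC
HIST1H2BC, HIST1H2BD, HIST1H2BF and HIST1H3G: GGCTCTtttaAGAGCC
HIST1H2AG: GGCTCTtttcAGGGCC
HIST1H4B, HIST1H4E, HIST1H4H, HIST1H4J and HIST4H4: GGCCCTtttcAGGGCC
HIST1H4I, HIST2H4A and HIST2H4B: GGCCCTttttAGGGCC
The last pair of forms belonged to H4 genes, and no gene of another histone carried either. In GRCh38 the stem-loop of HIST1H4B lay at chr6:26026901-26026916 on the minus strand, that of HIST1H2AC at chr6:26124669-26124684 on the plus strand and that of HIST3H2A at chr1:228457369-228457384 on the minus strand, and all 28 lay in the annotated 3′ untranslated region of their gene. Of the 33 genes without a match, 25 have a row of under 500 bases in the table, about the length of a coding sequence. Transcripts of 20 genes ran on for over 100 bases past the stem-loop.

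Promoters are shown because the classes differ in their known control elements. RefSeq (GRCh38.p14) gave the 250 bases before the start of 56 of the 61 genes, and 4 motifs were sought on both strands. The box CCAAT was in 48 of the 56 histone promoters (85.7%) and in 33.0% of 27305 promoters of all genes. TATAAA was in 35 histone promoters (62.5%) and 11.1% of all promoters. The H1 box AAACACA was in the promoters of all 5 H1 genes and of no other histone class, against 4.95% of all promoters. The octamer ATTTGCAT, a site for POU factors, was in 13 of 17 H2B promoters and 10 of 15 H2A promoters, against 1.66% of all promoters. H4 promoters held CCAAT in 2 of 10. The windows of many paired H2A and H2B genes overlap, so a motif there was counted for both genes. HIST1H2AJ and HIST1H2BM share nearly all of theirs, and HIST1H2AD and HIST1H3D have the same window. The counts are therefore not of separate sequences. In the promoters printed here, chosen for the H1 gene with the largest fall in HT-29, an H2B gene that fell in both lines and the gene that did not fall in HT-29, capitals mark these motifs.
HIST1H1B (H1-5), chr6:27867589-27867838, minus strand: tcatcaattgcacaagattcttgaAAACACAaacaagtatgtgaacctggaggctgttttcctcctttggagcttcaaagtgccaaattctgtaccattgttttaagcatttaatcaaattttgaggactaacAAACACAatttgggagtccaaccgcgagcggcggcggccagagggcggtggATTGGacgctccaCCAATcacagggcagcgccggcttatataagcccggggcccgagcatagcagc
HIST1H2BM (H2BC14), chr6:27814772-27815021, plus strand: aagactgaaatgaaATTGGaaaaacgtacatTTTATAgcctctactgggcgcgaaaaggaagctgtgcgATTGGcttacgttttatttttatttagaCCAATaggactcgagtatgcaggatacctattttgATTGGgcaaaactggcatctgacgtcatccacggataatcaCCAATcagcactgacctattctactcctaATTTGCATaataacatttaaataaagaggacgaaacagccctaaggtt
HIST3H2A (H2AC25), chr1:228457874-228458123, minus strand: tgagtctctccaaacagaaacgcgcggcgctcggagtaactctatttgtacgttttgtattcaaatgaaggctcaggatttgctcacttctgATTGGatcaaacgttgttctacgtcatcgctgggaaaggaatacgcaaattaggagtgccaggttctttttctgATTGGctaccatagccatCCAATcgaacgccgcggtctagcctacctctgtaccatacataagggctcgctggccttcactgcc
These letters describe the windows and say nothing of which factor was bound.

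SCS was compared with control in each line to ask which histone genes changed. In HT-29 cells the histone loci were lower after SCS in every class. Summed over all 57 loci, 5021 fragments in the control stood against 2237 after SCS, a log2 ratio of -1.40 (95% interval -1.47 to -1.33), or 2.64-fold lower, on the scale of fragments normalised by TMM, which sets the bulk of genes near no change. Histone loci made up 0.473% of the fragments outside the mitochondrial genome in the control (0.460% to 0.486%) and 0.162% after SCS (0.155% to 0.169%). A locus was called when its log2 fold change passed 1.5-fold and its interval left out 0, and only loci averaging 1 CPM or more over the libraries of the line were tested. Of 52 histone loci tested in HT-29, 51 were lower, 45 were called lower and none was called higher. Of all loci in that comparison, 14.8% were called lower and 16.8% higher. The median log2 fold change of the histone loci was -1.53, and that of all loci was 0.07.

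In NCM460 cells, too, the histone loci were lower after SCS. The sum went from 5110 to 3527 fragments, a log2 ratio of -1.01 (-1.07 to -0.95), or 2.01-fold lower. Their share of fragments outside the mitochondrial genome was 1.01% in the control (0.979% to 1.03%) and 0.567% after SCS (0.549% to 0.586%). All 42 loci tested were lower, 30 of them were called lower and none higher, where 13.8% of all loci were called lower and 15.3% higher. The median of the histone loci was -1.02, and that of all loci 0.03.

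In NCM460 the log2 fold change of all loci moved with the GC content of the transcript (Spearman rho = -0.63 across 12605 loci, which are not independent), and the histone loci had a median GC content of 57.2% against 49.1% for the loci tested. With a smooth trend on GC subtracted, 18 histone loci were called lower and none higher in NCM460, where 6.21% of all loci were called lower and 5.74% higher, and the sum was -0.72 (-0.79 to -0.66). There, 36 loci were lower and 6 were higher. Of the 30 loci called lower on the TMM scale 16 kept their call, and 2, HIST1H2BD (-0.75) and HIST1H2BJ (-0.79), gained one. The 14 that lost it were HIST1H1C, HIST1H2AB, HIST1H2AJ, HIST1H2AK, HIST2H2AC, HIST3H2A, HIST1H2BK, HIST1H3B, HIST1H3D, HIST2H3D, HIST1H4B, HIST1H4D, HIST1H4H and HIST1H4J. By histone, calls of lower went from 2 to 1 for H1, from 10 to 5 for H2A, from 6 to 7 for H2B, from 4 to 1 for H3 and from 6 to 2 for H4. The most negative loci were then HIST1H2BF (-2.29) and HIST1H2AC (-2.11). Values for NCM460 below are on the TMM scale unless the GC trend is named. With scaling to total fragments only, 7 were called lower and the sum was -0.31. In HT-29 the relation with GC was weaker (rho = -0.12 across 12108 loci). There the trend left 45 histone loci called lower and 1 called higher, with 16% of all loci called lower and 14.5% higher, and a sum of -1.39.

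**Figure D1:**
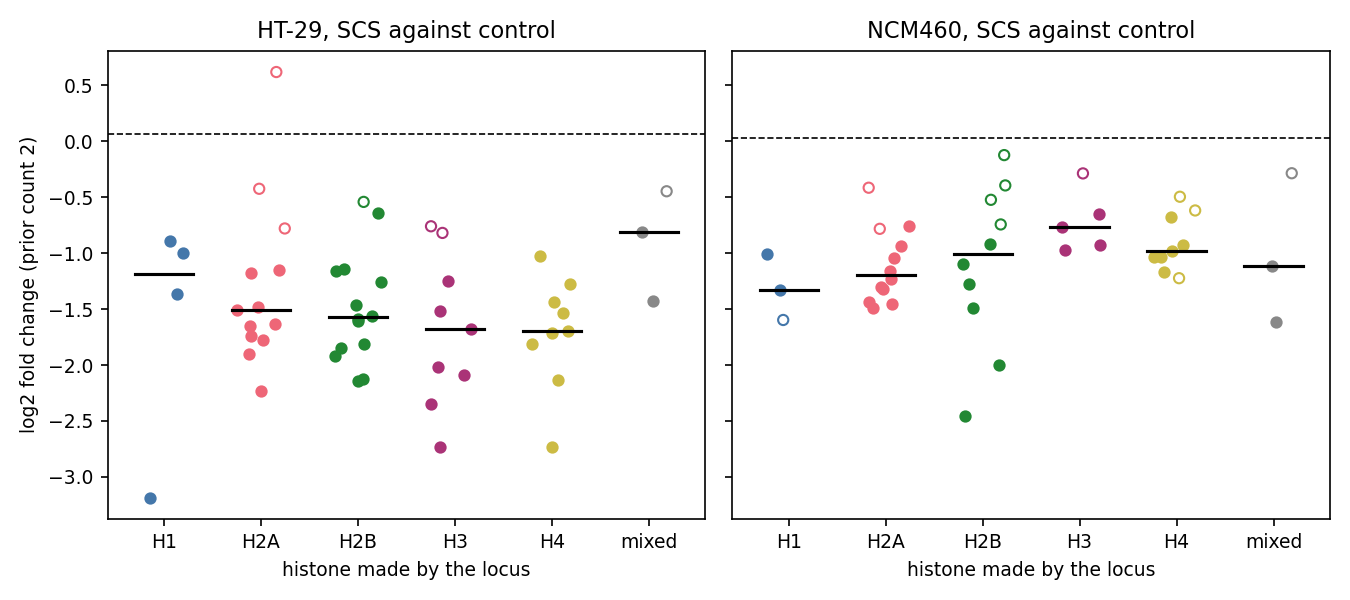
Log2 fold change of SCS against control for each histone locus tested, by the histone it makes, in HT-29 (left) and NCM460 (right). Filled points were called, open points were not, black bars are class medians, and the dashed line is the median of all loci (0.07 and 0.03). Every class median lies below the dashed line in both lines, and HIST3H2A is the only point above it.

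The H1 genes, whose protein closes DNA around the nucleosome core, were lower in both lines. Their sum stood at 890 fragments in the HT-29 control and 407 after SCS (-1.36, -1.53 to -1.19), and at 914 and 568 in NCM460 (-1.16, -1.31 to -1.01). HIST1H1B (ENSG00000184357, chr6:27866849-27867529), which makes H1.5, had 261 fragments in the HT-29 control, 31 after SCS, and was listed at 0 in both NCM460 libraries. Its log2 fold change in HT-29, -3.18 (-3.89 to -2.77), was the most negative of all histone loci tested. HIST1H1C, which makes H1.2, had 347 and 219 fragments in HT-29 and 469 and 324 in NCM460. It fell by 0.89 on the log2 scale in HT-29, the smallest fall of an H1 gene there, and by 1.00 in NCM460. HIST1H1E, which makes H1.4, fell in both lines too, from 234 to 136 fragments in HT-29 and from 443 to 244 in NCM460. HIST1H1D, which makes H1.3, had 48 and 20 fragments in HT-29 and was listed at 0 in NCM460. HIST1H1T, the testis form, had at most 2 fragments in any library, so no fold is given. Without the loci listed at 0 in NCM460, the H1 sum in HT-29 was -0.94 (-1.13 to -0.75).

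H2A and H2B form a dimer on the face of the core and are often made from paired genes. The H2A loci summed to 987 fragments in the HT-29 control and 489 after SCS (-1.25, -1.40 to -1.09), with 10 of 13 called lower. In NCM460 they summed to 1132 and 717 fragments (-1.13), with 10 of 12 called lower. HIST1H2AI fell most of the H2A genes in HT-29, from 158 to 37 fragments (-2.24), and went from 120 to 66 in NCM460 (-1.32). HIST1H2AG fell from 246 to 75 fragments in HT-29 (-1.90) and from 313 to 210 in NCM460 (-1.04). HIST1H2AC differed from these. It had 227 fragments in the HT-29 control and 198 after SCS (-0.42, -0.71 to -0.15), which was not called, and 323 and 190 in NCM460 (-1.23, -1.50 to -0.98), which was. In NCM460 the H2A gene with the most negative value was HIST1H2AJ, with 24 and 11 fragments (-1.49), and the least negative was HIST1H2AH, with 56 and 58 (-0.41, not called).

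The H2B loci summed to 1322 and 568 fragments in HT-29 (-1.45, -1.60 to -1.31), with 13 of 14 called lower. In NCM460 they summed to 1481 and 1020 (-1.01, -1.13 to -0.90), with 6 of 10 called lower. Sums by histone leave out the loci that mix genes of 2 histones. The 2 loci that mix H2A and H2B went from 344 to 269 fragments in HT-29 (-0.59, -0.82 to -0.35). In NCM460 these mixed loci went from 354 to 323 (-0.61, -0.83 to -0.38). HIST1H2BM fell furthest in HT-29, from 39 to 8 fragments (-2.14), and went from 26 to 8 in NCM460 (-2.00). HIST1H2BL had the most negative value of any histone locus in NCM460, with 36 fragments in the control and 8 after SCS (-2.45, -3.96 to -1.51), beside 108 and 34 in HT-29 (-1.81). At the other end stood HIST1H2BO, with 44 and 56 fragments in NCM460 (-0.12, not called), although it went from 52 to 18 in HT-29 (-1.61). HIST1H2BD fell in HT-29, from 176 to 92 fragments (-1.14), while its 227 and 219 in NCM460 were not called (-0.52, -0.80 to -0.25). The shared HIST1H2BB/HIST1H2BC locus went from 238 to 115 in HT-29 (-1.26) and from 474 to 271 in NCM460 (-1.28). Among single-gene H2A and H2B loci with a promoter sequence, 17 of 18 with the octamer were called lower in HT-29 (median -1.62) and 4 of 7 without it (median -1.14). Those without it and not called were HIST1H2AK and the pair HIST3H2A and HIST3H2BB, whose promoter windows largely overlap. Paired genes share windows, so these loci are not separate cases, and a relation with the octamer was not tested. In NCM460 these were 10 of 13 (median -1.10) and 5 of 7 (median -1.30).

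H3 and H4 form the tetramer at the heart of the core, and in HT-29 their genes had the most negative sums. The H3 loci went from 550 to 155 fragments there, a log2 ratio of -2.06 (-2.33 to -1.80). That interval lay below those of H1, H2A and H2B and overlapped that of H4, which went from 855 to 319 (-1.65, -1.84 to -1.47). Without loci spanning over 1000 bases, the H3 interval (-2.37 to -1.64) overlapped those of H2A (-1.72 to -1.25) and H2B (-1.84 to -1.36). It still lay below that of H1 (-1.53 to -1.19). The median of the H3 loci (-1.67) was close to those of H4 (-1.70) and H2B (-1.57), and 7 of 9 were called lower. HIST1H3G and HIST1H3B had 158 and 111 of the 550 control fragments. H3 took 11.0% of the histone fragments in the HT-29 control (10.1% to 11.9%) and 6.93% after SCS (5.91% to 8.06%). In NCM460 the H3 loci went from 360 to 279 fragments (-0.84, -1.07 to -0.61), and their share was 7.05% (6.36% to 7.78%) and 7.91% (7.04% to 8.85%). The difference between lines was not tested, and 5 of the 10 H3 loci were not tested in NCM460. Over the loci above 0 in NCM460, the H3 sum in HT-29 was -1.96 (-2.32 to -1.61).

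HIST1H3B, which makes the replication-coupled H3.1 protein, had 111 and 17 fragments in HT-29 (-2.73, -3.77 to -2.20) and 105 and 85 in NCM460 (-0.77, -1.21 to -0.35). Both were called on the TMM scale, and the intervals did not overlap. With the GC trend subtracted HIST1H3B in NCM460 stood at -0.12 (-0.56 to 0.29) and was not called. HIST1H3G fell from 158 to 34 fragments in HT-29 (-2.35) and was listed at 0 in NCM460. HIST1H3H fell from 109 to 38 in HT-29 (-1.67) and from 160 to 116 in NCM460 (-0.93). HIST1H3D, called lower in both lines on the TMM scale (39 to 14 and 39 to 27), shares every stretch of 100 bases with other annotated transcripts. The least negative H3 gene with at least 20 fragments was HIST2H3D, with 23 and 14 in HT-29 (-0.82, -2.02 to 0.07, not called) and 47 and 41 in NCM460 (-0.65, called).

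The H4 genes all make the same protein. In HT-29 all 9 H4 loci tested were called lower, and in NCM460 the sum went from 719 to 553 fragments (-0.85, -1.01 to -0.69) with 6 of 9 called lower, and 2 of 9 with the GC trend subtracted. HIST1H4L fell most in HT-29, from 43 to 5 fragments (-2.73, -5.03 to -2.00), and was listed at 0 in NCM460. HIST1H4C, the H4 gene with many fragments and the least negative value in NCM460, had 175 and 172 there (-0.49, not called), whereas it went from 174 to 61 in HT-29 (-1.70, -2.19 to -1.32). HIST1H4J had the highest deposited FPKM of the histone loci in all 4 libraries, 629 and 184 in HT-29 and 2077 and 801 in NCM460. FPKM scales fragments by the length of the gene and the size of the library. Its fragments went from 251 to 107 in HT-29 (-1.44) and from 288 to 195 in NCM460 (-1.03, and -0.33 with the GC trend subtracted, not called), and 77.7% of its 100-base windows also occur in HIST1H4K. HIST1H4E fell in both lines with and without the GC trend subtracted. In NCM460 the most negative H4 gene with at least 20 fragments was HIST1H4H, with 19 and 11 (-1.17), beside 87 and 27 in HT-29 (-1.81). HIST2H4A and HIST2H4B, near-identical copies, had at most 3 fragments in any library.

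**Figure D2:**
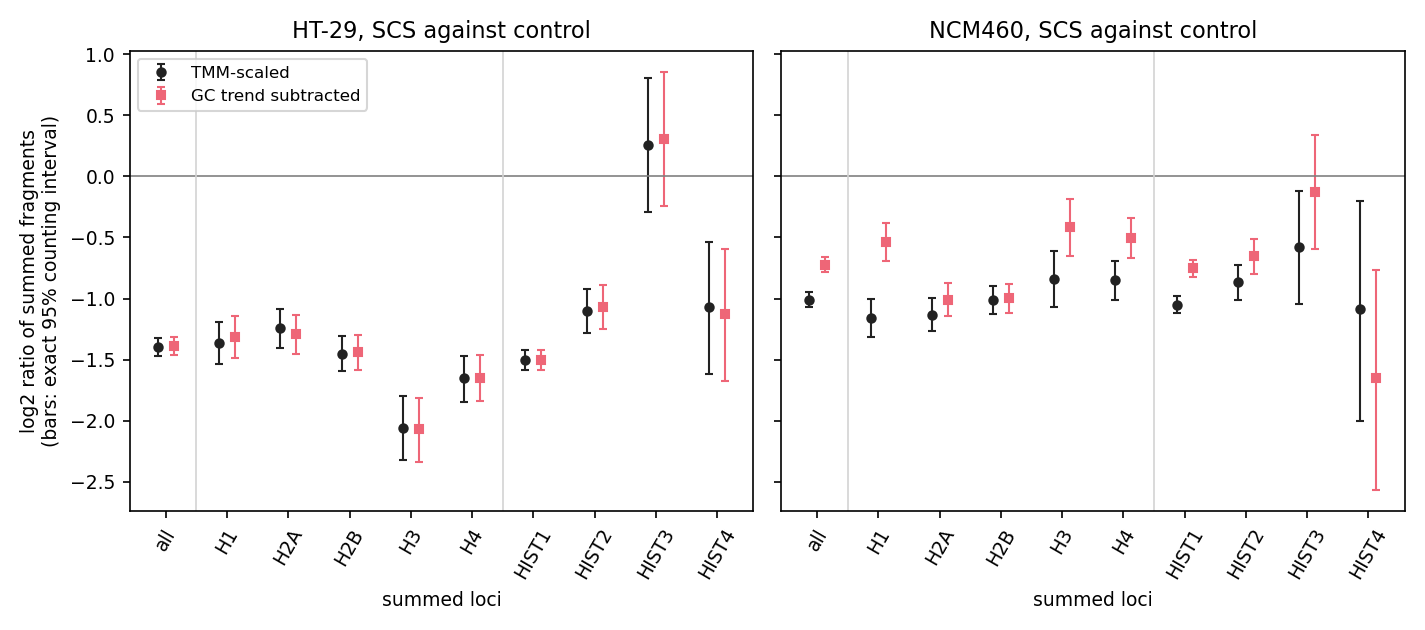
Log2 ratio of summed fragments, SCS against control, for all histone loci, each histone and each cluster, in HT-29 (left) and NCM460 (right). Black circles are on the TMM scale, red squares have the GC trend subtracted, and bars are exact 95% counting intervals. H3 is the lowest class in HT-29 (-2.06), and the red squares move up for H1, H3 and H4 in NCM460 (to -0.54, -0.42 and -0.51).

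By cluster, HIST1 carried most of the fragments and most of the change. In HT-29 it went from 4177 to 1731 fragments (-1.50, -1.58 to -1.42), with 40 of 43 loci called lower. In NCM460 it went from 4083 to 2735 (-1.05, -1.12 to -0.98), with 24 of 32 called lower. HIST2 went from 710 to 389 in HT-29 (-1.10, -1.28 to -0.92) and from 915 to 696 in NCM460 (-0.87, -1.01 to -0.72). In HT-29 the intervals of HIST1 and HIST2 did not overlap. They overlapped without loci shared by several genes (-1.64 to -1.46 and -1.74 to -1.26) and without loci spanning over 1000 bases (-1.75 to -1.54 and -1.73 to -0.87). HIST1 held 83.2% of the histone fragments in the control (82.1% to 84.2%) and 77.4% after SCS (75.6% to 79.1%). In NCM460 HIST1 held 79.9% and 77.5%.

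Within HIST2 the loci were uneven. HIST2H2BF, an H2B gene, fell from 351 to 138 fragments in HT-29 (-1.56, -1.87 to -1.29) and from 529 to 343 in NCM460 (-1.10). The shared HIST2H2AA3/HIST2H2BE locus was called in neither line, with 212 and 182 fragments in HT-29 (-0.45, -0.75 to -0.16) and 195 and 222 in NCM460 (-0.28, -0.57 to 0.00). Without loci shared by several genes the HIST2 sum in HT-29 was -1.50. HIST2H2AC went from 54 to 27 fragments in HT-29 (-1.15) and from 56 to 40 in NCM460 (-0.94). HIST2H2AA4 went from 38 to 18 (-1.18) and from 62 to 31 (-1.43), all called. HIST2H2AB fell from 29 to 10 fragments in HT-29 (-1.51), and its 23 and 18 in NCM460 were not called (-0.78, -1.80 to 0.13).

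HIST3 was the cluster that did not fall in HT-29. Its pair, HIST3H2A and HIST3H2BB, summed to 50 fragments in the control and 70 after SCS (0.25, -0.29 to 0.81), and to 83 and 77 in NCM460 (-0.58, -1.05 to -0.12). HIST3H2A had 29 and 54 fragments in HT-29 (0.62, -0.01 to 1.37), which was not called on the TMM scale and was called higher with the GC trend subtracted (0.67). In NCM460 it had 42 and 34 (-0.75, -1.47 to -0.09), which was called lower on the TMM scale and not with the GC trend subtracted (-0.16). HIST3H2BB was called in neither line, with 21 and 16 fragments in HT-29 (-0.54) and 41 and 43 in NCM460 (-0.39). HIST4H4, the only gene of its cluster, fell in both lines, from 84 to 47 fragments in HT-29 (-1.02, -1.62 to -0.54) and from 29 to 19 in NCM460 (-1.03, -2.00 to -0.20).

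**Figure D3:**
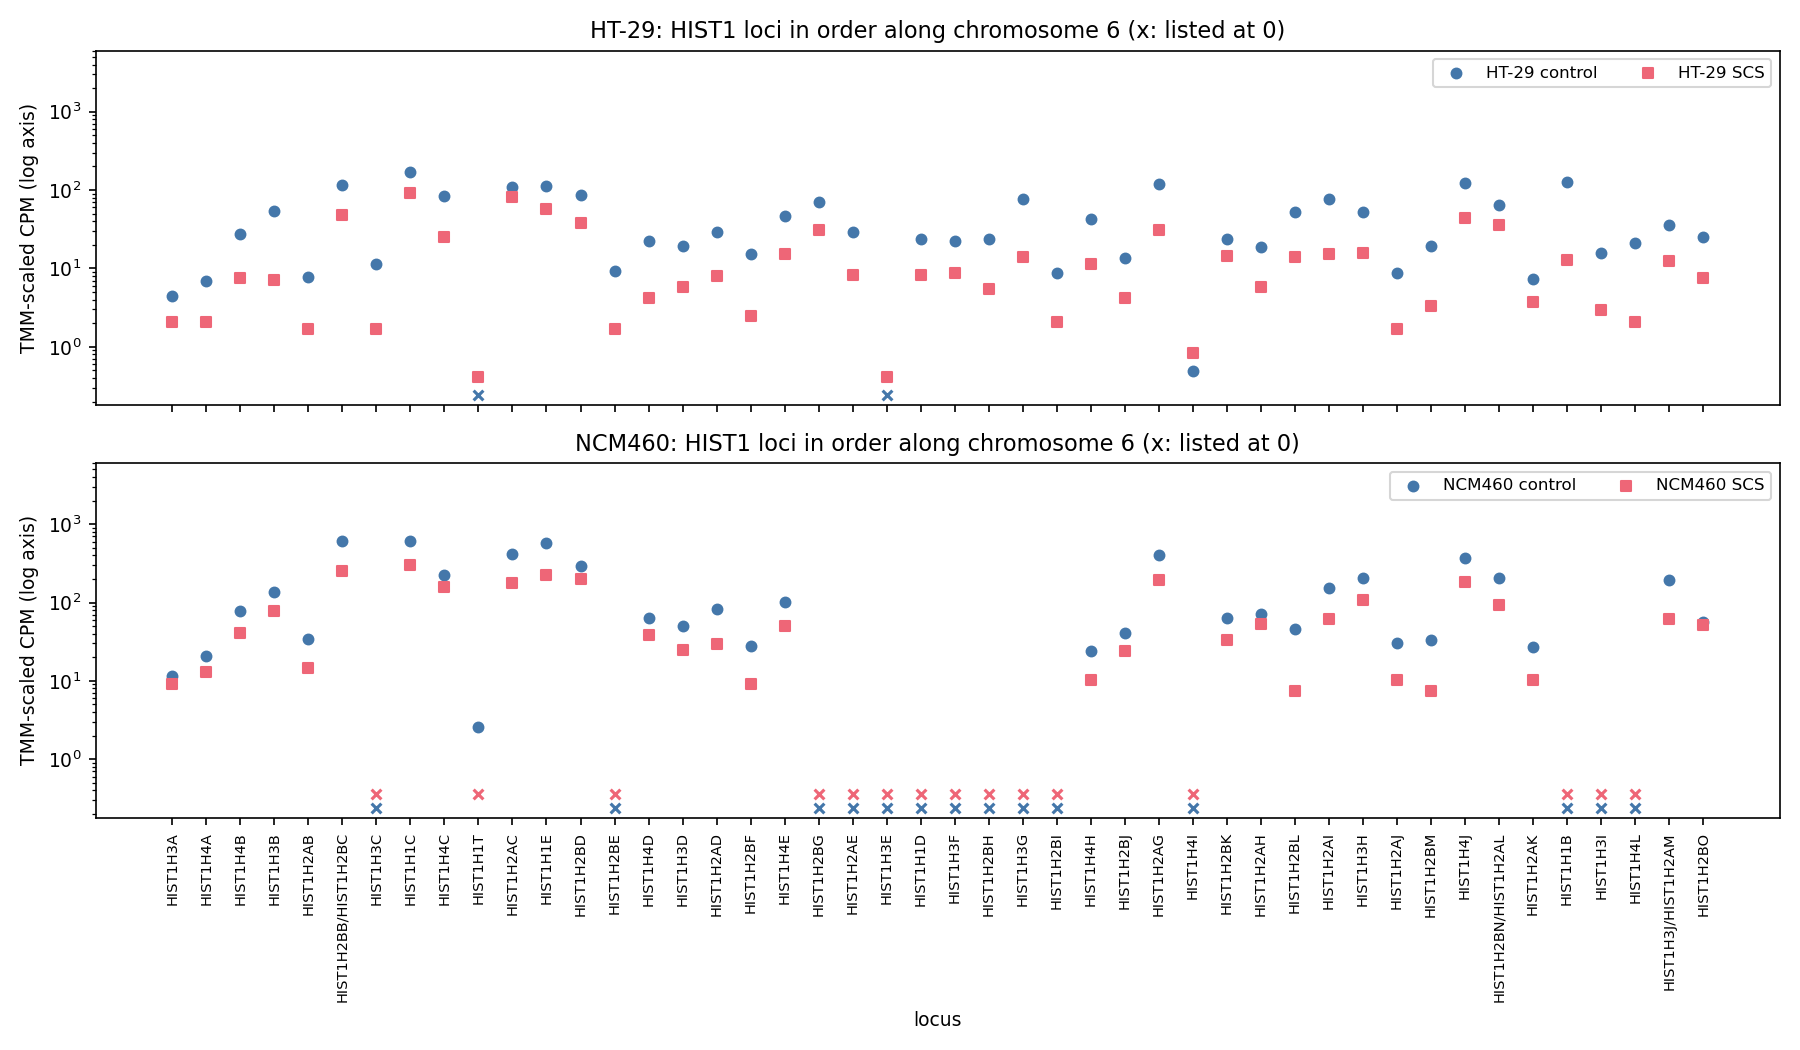
TMM-scaled CPM on a log axis for each HIST1 locus, in order along chromosome 6, in HT-29 (top) and NCM460 (bottom). Circles are control libraries, squares are SCS libraries, and crosses near the bottom mark loci listed at 0, offset for control and SCS. SCS squares lie below control circles at nearly every locus, and the crosses in NCM460 cover the 8 neighbouring loci from HIST1H2BG to HIST1H2BI and the 3 from HIST1H1B to HIST1H4L.

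In NCM460, 15 of the 57 histone loci were listed at 0 in both libraries. Among loci with at least 20 fragments over both HT-29 libraries, these were 12 of 50 histone loci (24%) and 209 of 9201 protein-coding loci (2.27%). They were not spread evenly. The 8 neighbouring loci from HIST1H2BG to HIST1H2BI (chr6:26216066-26273356) were all listed at 0, although together they had 522 fragments in the HT-29 control and 188 after SCS. On their sides, HIST1H4E had 79 and 55 fragments in NCM460 and HIST1H4H had 19 and 11. Another 3 neighbours, HIST1H1B, HIST1H3I and HIST1H4L (chr6:27866849-27873510), were listed at 0 too, with 336 and 43 fragments in HT-29. Widely used genes elsewhere were also at 0 there. HSPA1A, a heat shock protein gene, had 174 and 169 fragments in HT-29 and was listed at 0 in NCM460, so a listed 0 is given as such and no fold against it. The 12 loci with enough fragments were all called lower in HT-29, with a median of -1.88, beside -1.47 for the 40 tested loci above 0 in NCM460. Without them the sum in HT-29 was -1.28 (-1.36 to -1.20).

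Across the 40 loci tested in both lines, 39 were lower in both and 26 were called lower in both, or 17 with the GC trend subtracted. None was called in opposite directions, and 28 had the more negative value in HT-29. The control libraries of the lines were separate, but the share of loci on a given side was not tested. Of all loci tested in a line, 46.6% were lower in HT-29 and 49.1% in NCM460, and 14.8% and 13.8% were called lower. The share of all loci lower in both lines was not counted. In a shared edgeR quasi-likelihood model of cell line and SCS, with 1 residual degree of freedom, no histone locus of 53 passed an adjusted p under 0.05. The smallest adjusted p (Benjamini-Hochberg) was 0.172. At an unadjusted p under 0.05, 25 histone loci were lower and none higher. At that threshold 252 of all 12944 loci in the model were lower and 443 higher. At an adjusted p under 0.05, 0.0386% of all loci were lower and 0.0309% higher.

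**Figure D4:**
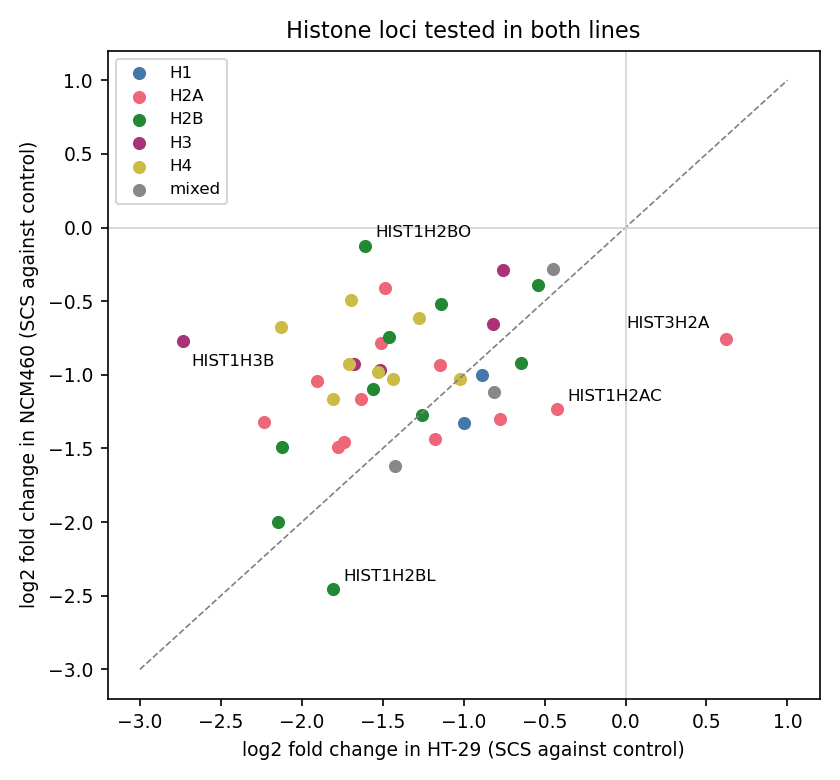
Log2 fold change of SCS against control in HT-29 (horizontal) and NCM460 (vertical) for the 40 histone loci tested in both lines, coloured by histone. The dashed line marks equal values, and 28 points lie above it, where HT-29 was the more negative. HIST3H2A (0.62 and -0.75) is the only point right of 0.

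Genes that lie head to head can be read as pairs. In the 9 pairs compared, the starts of an H2A and an H2B gene lay between 218 and 330 bases apart. Both genes were called lower in 7 pairs in HT-29, and 1 pair had a single gene called. In NCM460 both were called in 4 of 8 pairs tested, and the other 4 had a single gene called. The pair members differed by 0.18 to 1.16 in log2 fold change in HT-29 and by 0.03 to 1.49 in NCM460. The widest gap in NCM460 was that of HIST1H2AM, whose shared locus fell from 150 to 67 fragments, and HIST1H2BO, with 44 and 56. HIST1H2AM and HIST1H3J overlap in annotation, so their fragments cannot be told apart. HIST2H2BE and HIST2H2AC also lie head to head but were not among the 9 pairs. On the TMM scale HIST2H2AC was called lower in both lines, and the shared HIST2H2AA3/HIST2H2BE locus in neither.

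Counting could split fragments between near-identical genes, or between transcripts that overlap in annotation, such as those of HIST1H3J and HIST1H2AM. For 41 of the 61 genes no 100-base window occurred in another annotated transcript, and for 12 over 50% of windows did. Of the 7 such single-gene loci tested in HT-29, 6 were called lower (median -1.52), beside 36 of 41 other single-gene loci (median -1.59). In NCM460 these were 7 of 8 (median -1.27) and 20 of 30 (median -0.93). Loci spanning over 1000 bases in the table had a median of -1.26 in HT-29 and -1.04 in NCM460, and shorter loci had -1.61 and -0.98. Single-gene loci whose transcript ran over 100 bases past the stem-loop had a median of -1.62 in HT-29 and -1.04 in NCM460, and the others had -1.55 and -0.94.

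Genes that act on histone genes and their mRNAs were set beside them. Of 7 genes of histone gene transcription, CCNE1 and CDK2, a cyclin and kinase of S phase entry, fell in HT-29, from 35 to 10 fragments (-1.76) and from 67 to 16 (-2.10). NPAT, a coactivator of histone genes that this kinase phosphorylates, rose from 31 to 58 (0.63, 0.02 to 1.35), and HINFP, which binds H4 promoters, rose from 18 to 45 (0.99). That made 2 of the 7 called lower and 2 higher, beside 14.8% and 16.8% of all loci. Subtracting the GC trend took away the call of NPAT (0.38). In NCM460 only POU2F1, a factor that binds the octamer, was called, with 9 and 56 fragments (2.05). Of all loci there, 13.8% were called lower and 15.3% higher.

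Of 13 genes of 3′ end processing, 7 were called lower in HT-29 and none higher, with a median of -0.69, where 14.8% of all loci were called lower and 16.8% higher. SLBP fell from 88 to 56 fragments (-0.85, -1.39 to -0.38), and CSTF2, a cleavage stimulation factor subunit, from 36 to 14 (-1.41). The other 5 were the Sm protein genes SNRPB, SNRPD3, SNRPE, SNRPF and SNRPG, from -0.69 to -1.60. The 6 not called in HT-29 were ZNF473 (0.02), LSM10 (0.47), LSM11 (0.06), CPSF2 (-0.08), CPSF3 (-0.47) and SYMPK (-0.42). In NCM460, 2 were called lower and 3 higher, with a median of 0.04, beside 13.8% and 15.3% of all loci. Subtracting the GC trend left 2 called lower, LSM10 and SNRPF, and 2 higher, SNRPD3 and SNRPE. SLBP had 8 and 20 fragments there (0.78, -0.40 to 2.24, not called). Of 7 genes found for translation and decay of histone mRNA, UPF1, an RNA helicase, was called lower in HT-29 (-1.13) and, on the TMM scale, in NCM460 (-0.75). ZCCHC6, a terminal uridylyltransferase, was called higher in HT-29 (0.96) and, on the TMM scale, in NCM460 (2.13). Also called higher on that scale were ZCCHC11 in HT-29 (35 to 66 fragments, 0.65) and ERI1 in NCM460 (4 to 25, 1.93). That made 1 lower and 2 higher in each line, beside 14.8% and 16.8% of all loci in HT-29 and 13.8% and 15.3% in NCM460. Subtracting the GC trend took away the call of ZCCHC11 (0.44). In NCM460 neither UPF1 (-0.07) nor ZCCHC6 (interval -0.11 to 3.36) was then called, nor was any other gene of this list.

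Most replacement histones are made outside S phase from polyadenylated mRNAs. H2AFX differs in that its gene gives both a stem-loop mRNA and a polyadenylated one. Of 10 replacement histone genes tested in HT-29, 4 were called lower and 2 higher, with a median of -0.17, beside 14.8% and 16.8% of all loci. H2AFX, whose protein is phosphorylated at DNA breaks, fell from 329 to 92 fragments (-2.03), H2AFV from 182 to 78 (-1.42), H2AFZ from 293 to 146 (-1.22) and H3F3A, which makes H3.3, from 380 to 247 (-0.85). H1F0, a linker histone of non-dividing cells, rose from 433 to 932 (0.87, 0.71 to 1.04), and H1FX rose from 109 to 226 (0.81). H3F3B, the other H3.3 gene, had 382 and 504 fragments (0.17, -0.03 to 0.36) and was not called. In NCM460 on the TMM scale, 3 of 11 were called lower and 1 higher, beside 13.8% and 15.3% of all loci. Those called lower were H2AFX (238 to 137, -1.26), H1F0 (888 to 691, -0.83) and CENPA (81 to 65, -0.78). H2AFZ was called higher (105 to 221, 0.60). With the GC trend subtracted CENPA kept its call (-0.66), H2AFX (-0.52), H1F0 (-0.48) and H2AFZ (0.55) lost theirs, and H3F3A (-0.85) and H2AFY (-0.68) were called lower. That left 3 called lower and none higher, beside 6.21% and 5.74% of all loci.

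**Figure D5:**
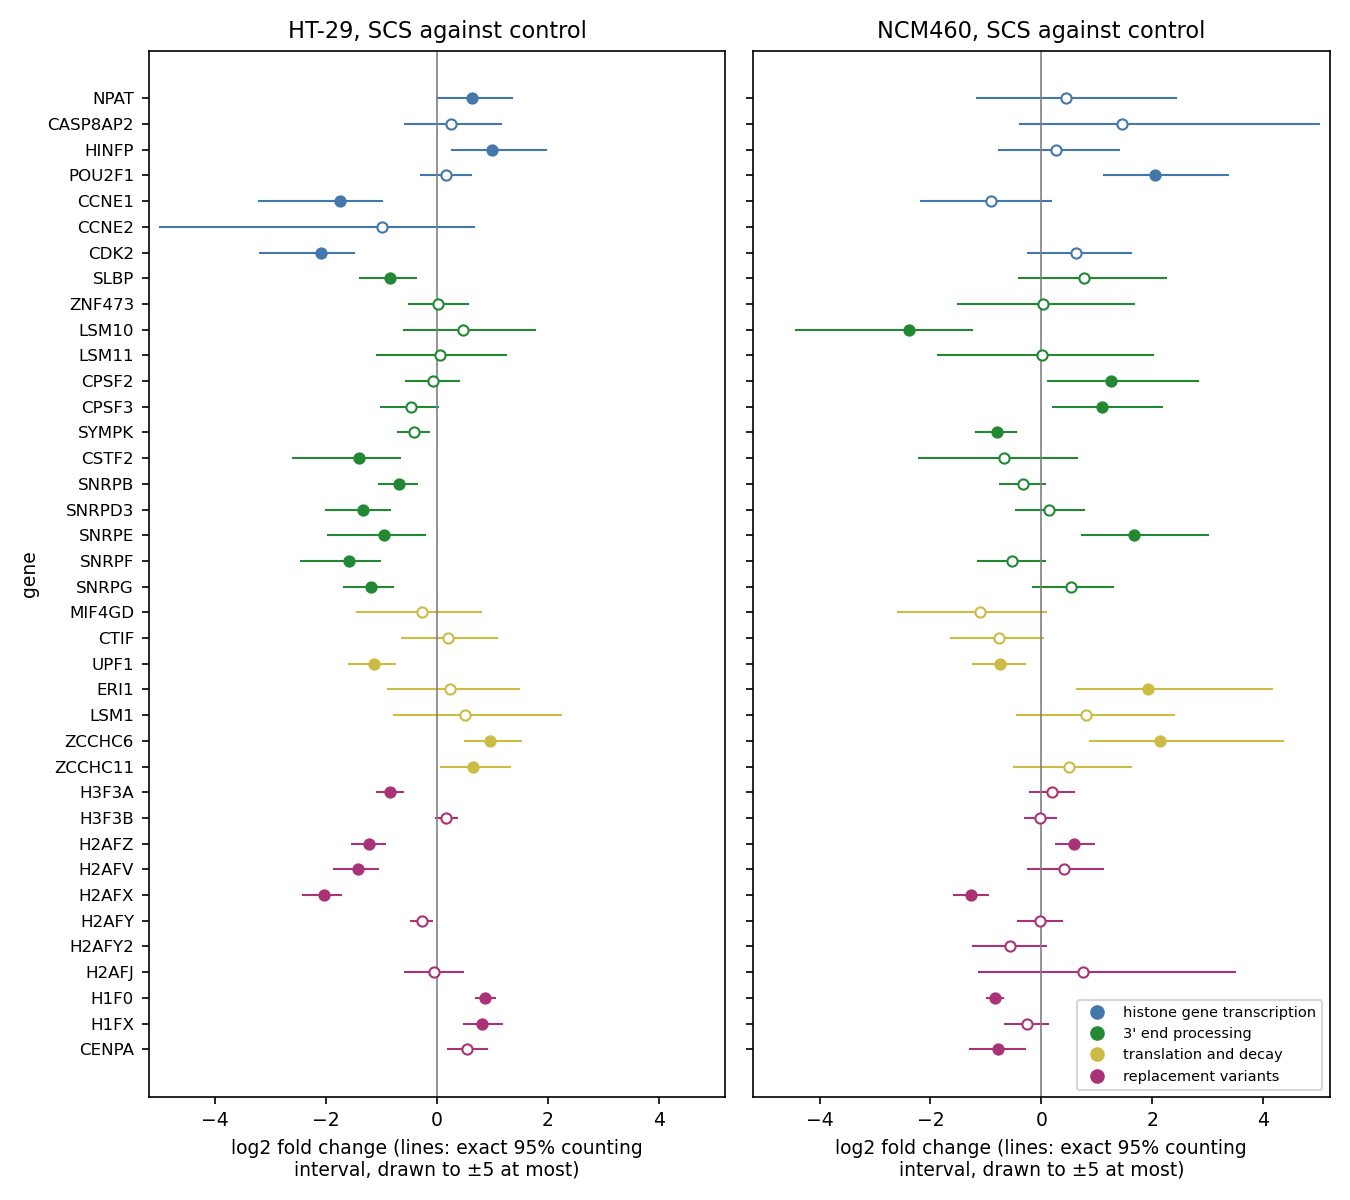
Log2 fold change of SCS against control for genes of histone gene transcription, 3′ end processing, translation and decay of histone mRNA, and replacement histones, in HT-29 (left) and NCM460 (right). Filled points were called, open points were not, and lines are exact 95% counting intervals drawn to 5 at most. H2AFX lies left of 0 in both lines, while H1F0 lies at 0.87 in HT-29 and -0.83 in NCM460.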

How the data were processed

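RNA of 2 human colon cell lines was sequenced with and without SCS, 1 library each. Per the submitters' processing notes, reads were converted with bcl2fastq 2.17.1.14, trimmed with cutadapt 1.9.1, aligned with Bowtie2 and counted with HTSeq 0.6.1. The study's methods also name Cuffdiff. The notes name hg19, but the table's coordinates follow GRCh38 (93.1% of the rows found in GENCODE 29 had its start and end). The authors deposited a scaled count signal and FPKM for each gene and library. The scaled counts are whole multiples of a step in each library, so whole fragments were recovered: 99.8% of values came out whole to within 0.02 fragments in every library. Rows without a gene name held at most 0.0352% of fragments. Rows with identical values in all libraries were merged into loci (anywhere above 10 fragments, otherwise within 1000 bases), leaving 18661.

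Fragments were scaled by TMM (edgeR 4.0.16, R 4.3.3). Fold changes of single loci used a prior count of 2, and sums none. A call needed a 1.5-fold change, an interval without 0 and a mean of 1 CPM. The trend on GC was a lowess fit with a fraction of 0.3 on a GENCODE 29 transcript of each gene. The calls are not tests between conditions. Scripts were tested on simulated data. The members and gene lists were chosen with earlier results of these data known. Any member could be named, and those given in full had the most fragments of their histone, the highest or lowest value, or lay outside HIST1. The plan allowed for counts, and the recovered fragments took their place. DESeq2 1.42.0 size factors and other alternatives are in the closing section.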

Additional observations from a re-analysis of the deposited data

Results flagged for a closer look

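On the TMM scale some values had opposite signs in the lines, with counting intervals that did not overlap and at least 1 of the pair called. These differences were not tested, since each condition had 1 library. HIST3H2A was the only histone member among them, at 0.62 in HT-29 and -0.75 in NCM460 (log2 fold change, SCS against control). Replacement histones with a negative change in HT-29 and a positive change in NCM460 were H3F3A (-0.85 and 0.18), H2AFZ (-1.22 and 0.60) and H2AFV (-1.42 and 0.42). Those with a positive change in HT-29 and a negative change in NCM460 were H1F0 (0.87 and -0.83), H1FX (0.81 and -0.26) and CENPA (0.54 and -0.78). The S phase kinase CDK2 had -2.10 in HT-29 and 0.63 in NCM460. Of the 3′ end processing genes, CPSF3 had -0.47 and 1.09, SNRPD3 -1.34 and 0.14, SNRPE -0.96 and 1.68, SNRPG -1.19 and 0.54, and LSM10 0.47 and -2.39. The epithelial cadherin gene CDH1 had 0.74 and -0.42. With the GC trend subtracted, 10 of these 14 genes still had opposite signs and 8 of them had intervals that did not overlap. H3F3A (-1.05 and -0.85), H2AFV (-1.54 and -0.34) and SNRPG (-1.42 and -0.57) were then negative in both lines, and H1FX (0.87 and 0.29) was positive in both. The intervals of HIST3H2A (0.67 and -0.16) and CPSF3 (-0.58 and 0.37) then overlapped.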

How the results depend on the processing

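Each of 15 other settings changed a single choice, and 1 of them was chosen after seeing the data. In HT-29 every sum kept its direction under all of them, and the count called lower ran from 33 to 51 against 45. In NCM460 only the HIST3 sum turned positive, under a single scaling, and the count ran from 7 to 40 against 30. Of the values over classes, clusters and all loci, 284 stayed within the limits set for no change, 90 moved and 1 changed sign. Of the values of single loci, 722 stayed, 61 moved and 7 whose main interval left out 0 changed sign. These 7 were NCM460 values of HIST1H2BD, HIST1H4C, HIST2H2AA3/HIST2H2BE and HIST2H3D under different settings. After the change only HIST2H2AA3/HIST2H2BE under scaling to total fragments had an interval that left out 0 (0.12 to 0.69). Values after a histone, a cluster or "all loci" are log2 ratios of summed fragments, and the causes were not tested. Scaling to total fragments also moved the median of all loci to 0.31 in HT-29 and 0.65 in NCM460, and scaling outside the mitochondrial genome moved it to -0.06 and 0.23, so values there are read against those medians. With scaling to total fragments, 1 histone locus was called higher in HT-29 and the sums were all loci -1.12, H1 -1.09, H2A -0.97, H2B -1.18, H3 -1.78, H4 -1.38, HIST1 -1.23 and HIST2 -0.82. There, 7 histone loci were called lower in NCM460, the median was -0.31, all loci -0.31, H1 -0.47, H2A -0.44, H2B -0.32, H3 -0.15, H4 -0.16, HIST1 -0.36, HIST2 -0.17 and HIST3 0.11, and the single loci HIST1H2BD 0.17, HIST1H4C 0.19, HIST2H2AA3/HIST2H2BE 0.40 and HIST2H3D 0.023 turned positive. With scaling to fragments outside the mitochondrial genome, the sums in HT-29 were all loci -1.55, H2B -1.60 and HIST1 -1.65. In NCM460 the median was -0.84, all loci -0.83, H1 -0.98, H2A -0.95, H2B -0.83, H4 -0.67, HIST1 -0.87 and HIST2 -0.69. With the GC trend subtracted, 1 histone locus was called higher in HT-29. There, 18 histone loci were called lower in NCM460, the median was -0.66, all loci -0.72, H1 -0.54, H3 -0.42, H4 -0.51, HIST1 -0.75 and HIST2 -0.65, and the single loci HIST2H2AA3/HIST2H2BE 0.17 and HIST2H3D 0.10 turned positive. With a trend on expression level subtracted, in NCM460 the median was -0.80, all loci -0.73, H1 -0.86, H2A -0.88, H2B -0.74, H3 -0.58, H4 -0.59, HIST1 -0.77 and HIST2 -0.59, and HIST2H2AA3/HIST2H2BE 0.031 turned positive. After thinning to equal depth, 1 histone locus was called higher in HT-29 and the median was -1.27, H3 -2.34, H4 -1.44 and HIST2 -0.90. Without loci shared by several genes, the sums in HT-29 were all loci -1.49 and HIST2 -1.50. NCM460 gave HIST2 -1.08. Without loci spanning over 1000 bases, the sums in HT-29 were all loci -1.57, H2A -1.48, H2B -1.60, HIST1 -1.64 and HIST2 -1.29. Without loci listed at 0 in NCM460 (the setting chosen after seeing the data), the sums in HT-29 were all loci -1.28, H1 -0.94 and HIST1 -1.37. With ratios of the deposited FPKM plus 1, in HT-29 the median was -1.88, all loci -1.83, H1 -1.70, H2A -1.85, H2B -1.66, H4 -2.03, HIST1 -1.89 and HIST2 -1.52. In NCM460 the median was -1.39, all loci -1.30, H1 -1.57, H2A -1.45, H2B -1.25, H3 -1.13, H4 -1.20, HIST1 -1.34 and HIST2 -1.10. With rows as deposited, HT-29 gave H2B -1.29 and NCM460 gave HIST1 -1.12. With DESeq2 size factors, the sums in NCM460 were all loci -1.11 and HIST1 -1.15. With the size factors in the deposited values, the sums in NCM460 were all loci -1.16, H2A -1.28, H2B -1.16, HIST1 -1.20 and HIST2 -1.02. With 1 library per condition no library could be left out. No paired analysis was possible because the labels number no replicates within a line, and cell line was the only shared term in the edgeR model of both lines. Counts limit the small clusters: HIST3 had 50 fragments and HIST4 84 in the HT-29 control.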
